A study of Mus musculus with 6 samples.

Results

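The set studied here holds 42 regulators and markers of the germ layers and of the extraembryonic lineages, chosen by name and matched by Ensembl identifier to 42 of the 51912 genes in the count table. They were followed in R1 mouse embryonic stem cells, an established line. All cells were first kept in 2iLIF medium, which holds the naive state with inhibitors of MEK and GSK3 and the cytokine LIF, and were then moved to the serum-free medium N2B27 containing 100 ng/ml of FGF2. Sequencing of mRNA followed 24 h or 48 h later, with 3 libraries at each time, and the labels do not say whether these came from separate cultures, so p-values measure the spread between these libraries, which may be technical. Both groups received FGF2, and libraries of cells without FGF2 or still in 2iLIF were not analysed here, so the effect of FGF2 cannot be told apart from those of the new medium and of the hours spent in it.

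Embryonic stem cells correspond to the epiblast of the early embryo. The trophoblast, which contributes to the placenta, and the primitive endoderm, which contributes to the yolk sac, are set apart by the blastocyst stage. FGF signalling through ERK is known to favour the primitive endoderm in the blastocyst. Mesoderm and definitive endoderm arise later, at gastrulation, when epiblast cells pass through the primitive streak under Nodal, WNT, BMP and FGF signals. The 42 genes were placed in 4 lineages by their best known role: 20 for the streak and mesoderm, 7 for endoderm, 9 for primitive endoderm and 6 for trophoblast. Several act in more than 1 of them, such as Eomes in streak and trophoblast, Hand1 in mesoderm and trophoblast, Sox17 in both endoderms, and Gata2 in trophoblast and blood.

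The libraries held between 19574969 and 23133148 estimated counts. All 10 pluripotency markers checked were abundant in every library, which fits the label. Pou5f1, which encodes the factor at the core of the pluripotency network, stood at 1110 ± 1.99 CPM (the count relative to the TMM-scaled library total) at 24 h and 1060 ± 15.2 CPM at 48 h (SD, n = 3 each). The list as a whole was not stable, since 5 markers were higher and 5 lower at 48 h in the test described below. Nanog fell most, from 695 ± 24.6 to 174 ± 6.47 CPM, and Lin28a rose most, from 192 ± 7.83 to 563 ± 4.86 CPM (SD, n = 3 each). Of 10 markers of fibroblasts or feeder cells, 5 had under 10 counts in every library, and Lum and Postn were at 0. Their summed count was between 126 and 189 at 24 h and between 133 and 188 at 48 h.

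Most lineage regulators were undetected or near the limit of detection at both times. Of the 42, 19 were undetected, that is, they had under 10 counts in every library, and 7 more reached 10 counts in at least 1 library but were too low to test. The other 16 passed the expression filter of edgeR, the tool used to compare the times. Of all 51912 genes in the count table, 14889 passed this filter, so low counts were not particular to this set. The 19 undetected genes together held between 23 and 36 counts in a library. The counts of Cer1, Gata5 and Ttr were 0 in all 6 libraries, and a count of 0 allows up to 3 counts, or 0.127 to 0.15 CPM depending on the library. These limits cover counting error only. A further 8 undetected genes never exceeded 2 counts, 6 reached between 3 and 5, and Evx1 and Gata6 reached 9. Just outside the limit, Gsc and Gata1 had 10 counts in their highest library.

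**Figure D1:**
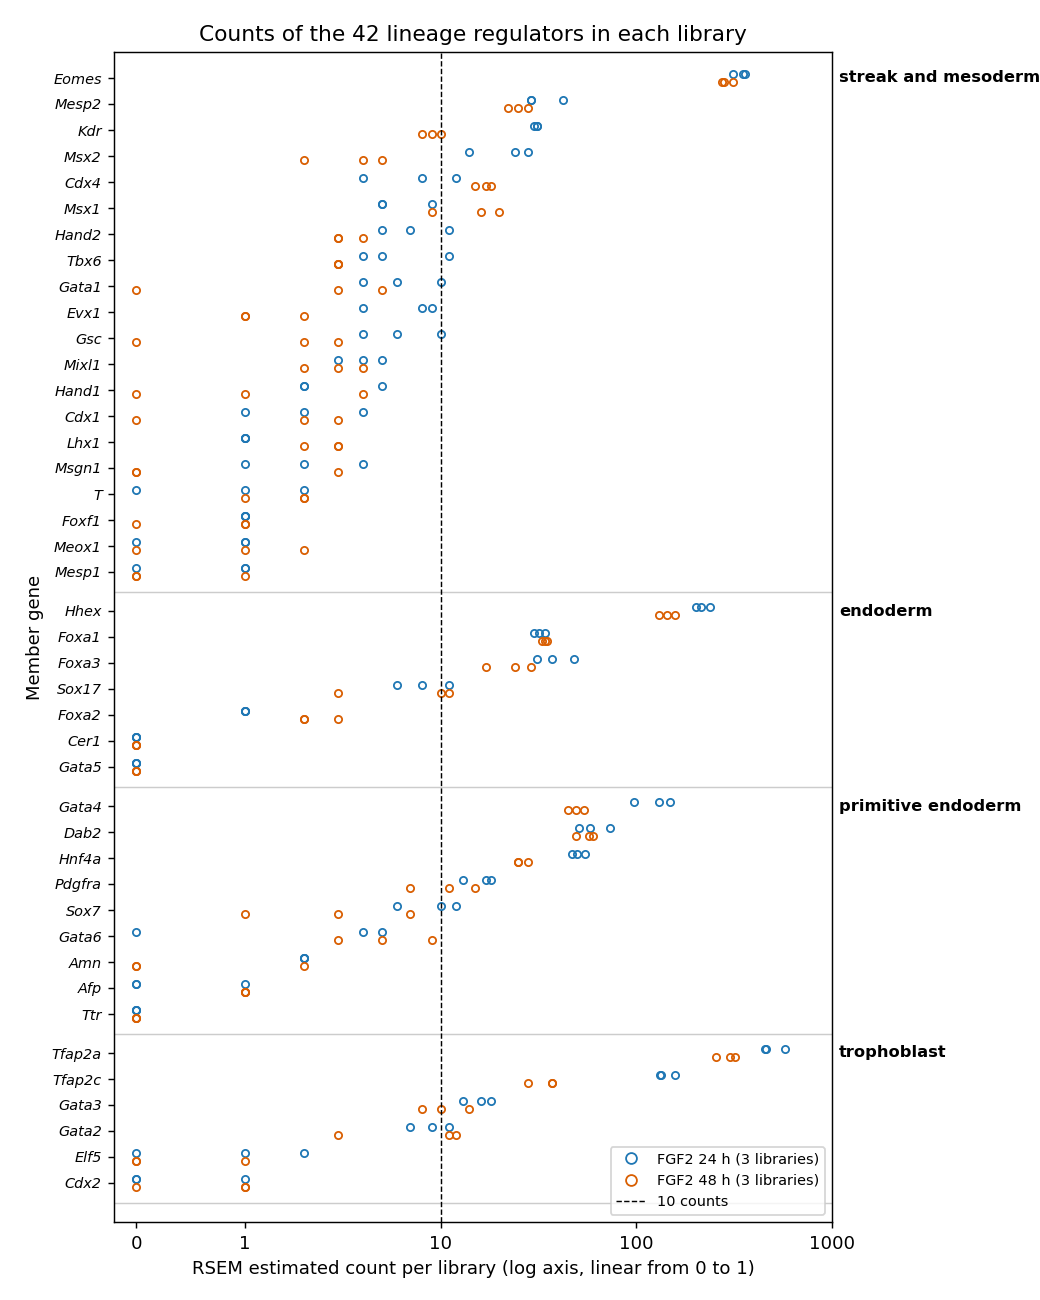
Estimated counts of the 42 regulators (rows, grouped by lineage and sorted by mean count) in each of the 3 libraries at 24 h and the 3 at 48 h, on a log axis that is linear from 0 to 1; the dashed line marks 10 counts. The 19 undetected genes lie wholly to the left of the line, and Tfap2a and Eomes lie farthest to the right.

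The 16 tested regulators were themselves low. Per kilobase of merged exon, each lay below the median of the 14889 tested genes, and 12 lay below the 25th percentile. Tfap2a stood at the 46.6th percentile and Eomes at the 45.5th. The exon lengths include every annotated isoform, so they are an upper bound on the length of the message.

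Of the 16 tested regulators, 10 changed between 24 h and 48 h at an adjusted p under 0.05, against 62.8% of all tested genes. The share among the regulators was 62.5%, which is near that background. By direction, 9 were lower at 48 h, where 31.9% of all tested genes were, and 1 was higher, where 30.9% were. The median log2 fold change of the 16 was -0.61, beside -0.01 for all tested genes. The filter shapes this count. Msx2, Kdr, Pdgfra and Gata3 met its cutoff in every 24 h library but not in every 48 h library, and Cdx4 the reverse. Such genes enter through the time at which they are high, which favours a difference but does not fix a call. Pdgfra and Gata3 were not called (edgeR adjusted p = 0.173 and 0.155). The calls of Msx2, Kdr and Cdx4, and the median, carry this selection. The 42 genes were also chosen with earlier results of these data known. The counts by direction and the median may therefore not be independent of these data. Of the 16 tested regulators, 6 were called with a change of at least 2-fold, where 11.2% of all tested genes were, and these 6 include Msx2, Kdr and Cdx4. The summed level of all 42 genes was 80.6 ± 0.837 CPM at 24 h and 49.9 ± 2.88 CPM at 48 h (SD, n = 3 each), a sum in which Tfap2a and Eomes carry the most counts. In bulk RNA, fewer cells with a transcript and less transcript per cell cannot be told apart.

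**Figure D2:**
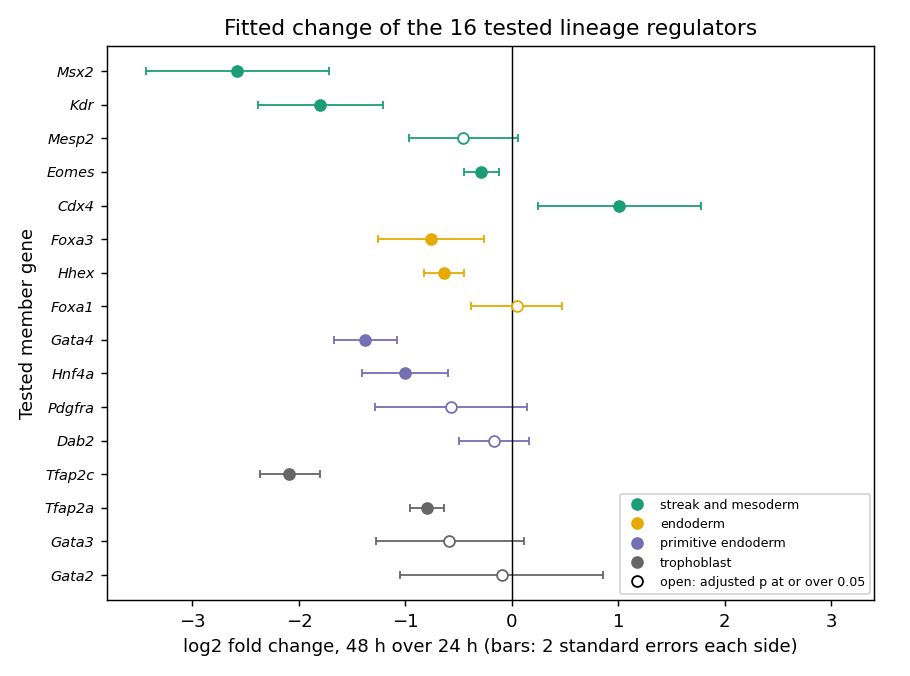
Fitted log2 fold change (48 h over 24 h, horizontal axis) of the 16 tested regulators, coloured by lineage, with bars of 2 standard errors on each side; open points did not pass the test. The filled points lie left of 0 except that of Cdx4, and Msx2 and Tfap2c lie farthest left.

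The streak and mesoderm genes were the largest group. Their summed level was 23.2 ± 1.59 CPM at 24 h and 17.5 ± 1.43 CPM at 48 h (SD, n = 3 each). Most of this sum was that of Eomes at both times. Of 20, 10 were undetected, 5 were low and untested, and 5 were tested, of which 3 fell, 1 rose and 1 did not pass the test. Eomes, a T-box factor that starts the streak and endoderm programmes, had 352, 313 and 361 counts at 24 h and 312, 273 and 280 at 48 h. After scaling to CPM the groups did not overlap, as was the case for 66.9% of all tested genes. Eomes (ENSMUSG00000032446, chr9:118478212-118486132, plus strand, GRCm38) fell from 16.1 ± 1.35 CPM to 13.2 ± 1.05 CPM (SD, n = 3 each), a fitted log2 change of -0.29 (standard error, SE, 0.08; edgeR adjusted p = 0.00705). It shares 118 exon bases with an antisense gene, Gm33460, that had at most 7 counts in a library. This change was well under 2-fold.

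Brachyury, listed as T (ENSMUSG00000062327, chr17:8434423-8442496, plus strand), is the T-box factor that marks the streak and its nascent mesoderm. It had 2, 1 and 0 counts at 24 h and 2, 2 and 1 at 48 h, so no change could be measured at this depth. The 250 bases before the start of these related genes, of which 1 was detected and 1 was not, are shown for comparison, with those of Cdx4, described below. They come from RefSeq on GRCm38.p6, lie at chr9:118477939-118478188, chr17:8434173-8434422 and chrX:103321148-103321397 on the plus strand, and hold no annotated exon. Capitals mark matches to the motifs given with the promoters further on.
Eomes: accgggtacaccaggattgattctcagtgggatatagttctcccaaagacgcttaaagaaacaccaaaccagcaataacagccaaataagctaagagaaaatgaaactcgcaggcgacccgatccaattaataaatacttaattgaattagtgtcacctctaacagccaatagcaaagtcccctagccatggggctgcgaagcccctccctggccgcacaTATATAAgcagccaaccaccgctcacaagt
T: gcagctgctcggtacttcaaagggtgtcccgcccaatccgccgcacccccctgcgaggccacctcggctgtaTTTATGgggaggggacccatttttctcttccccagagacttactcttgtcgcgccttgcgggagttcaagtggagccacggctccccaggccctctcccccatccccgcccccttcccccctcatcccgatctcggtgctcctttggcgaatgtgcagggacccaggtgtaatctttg
Cdx4: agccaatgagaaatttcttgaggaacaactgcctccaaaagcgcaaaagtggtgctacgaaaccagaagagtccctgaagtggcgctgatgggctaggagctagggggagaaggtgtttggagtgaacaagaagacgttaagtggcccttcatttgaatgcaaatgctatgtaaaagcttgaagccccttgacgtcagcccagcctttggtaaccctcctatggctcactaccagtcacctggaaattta
The Eomes stretch holds a TATA motif that begins 30 bases before the start. The T stretch holds none, but has a CDX motif that begins 178 bases before the start. The Cdx4 stretch has no match to any motif searched.

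Several transcription factors that act beside or downstream of Eomes and T were near 0, but Mesp2 was not. Mixl1, a homeobox factor of the streak, had between 2 and 5 counts. Mesp1, which marks the first cardiac mesoderm, had at most 1 count, whereas its neighbour Mesp2, a factor of somite segmentation that lies 16938 bases away on chromosome 7, had 29, 42 and 29 counts at 24 h and 25, 28 and 22 at 48 h. The levels of Mesp2 overlapped between the times, and it did not pass the test (fitted log2 change -0.46, SE 0.26, adjusted p = 0.135). Msgn1, of presomitic mesoderm, and Lhx1, of the anterior streak, had at most 4 and 3 counts. Foxf1, Meox1, Hand1 and Cdx1 had at most 1, 2, 5 and 4 counts.

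A group of factors stood just around 10 counts. Evx1, a homeobox factor of the posterior streak, had 9, 4 and 8 counts at 24 h and 1, 1 and 2 at 48 h. Gsc, the organizer gene goosecoid, had 10, 4 and 6 counts at 24 h and 3, 2 and 0 at 48 h. In a fit without the filter on low counts, which took in all genes with a count, 37.4% of 26148 genes passed, among them Evx1 (log2 fold change -2.33, adjusted p = 0.0133) and Gsc (-1.97, adjusted p = 0.0355). Both rest on 21 against 4 and on 20 against 5 summed counts. Tbx6, a T-box factor of paraxial mesoderm, with 11, 5 and 4 counts at 24 h and 3 in each 48 h library, did not pass in that fit (adjusted p = 0.191). Neither did Hand2, of heart and limb mesoderm, with 11, 5 and 7 against 4, 3 and 3 counts (adjusted p = 0.137), nor Gata1, of red blood cells (adjusted p = 0.149).

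The largest fold change of the set was that of Msx2, a homeobox factor and target of BMP signalling. Msx2 (ENSMUSG00000021469, chr13:53466884-53473074, minus strand) had 14, 24 and 28 counts at 24 h and 4, 2 and 5 at 48 h. It fell from 1.02 ± 0.276 CPM to 0.167 ± 0.0687 CPM (SD, n = 3 each), a fitted log2 change of -2.58 (SE 0.43, adjusted p = 6.59e-05). Its paralog Msx1 had 5, 5 and 9 counts at 24 h and 20, 16 and 9 at 48 h. Msx1 was removed by the filter, and passed (log2 fold change 1.19, adjusted p = 0.025) in the fit without the filter. The paralogs thus had estimates of opposite sign, both on few counts, and their difference was not tested.

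Kdr (ENSMUSG00000062960, chr5:75932827-75978458, minus strand), the VEGF receptor that marks blood and vessel progenitors, had 30, 31 and 31 counts at 24 h and 10, 8 and 9 at 48 h. The groups did not overlap. Kdr fell from 1.44 ± 0.112 CPM to 0.411 ± 0.0475 CPM (SD, n = 3), or 3.47-fold, with a fitted log2 change of -1.80 (SE 0.29, adjusted p = 5.05e-05).

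Cdx4 was the regulator that rose. It is an X-linked member of the caudal homeobox family, which sets posterior identity. Cdx4 (ENSMUSG00000031326, chrX:103321398-103330592, plus strand) had 8, 4 and 12 counts at 24 h and 18, 15 and 17 at 48 h. Its level went from 0.368 ± 0.159 CPM to 0.760 ± 0.0717 CPM (SD, n = 3 each), a fitted log2 change of 1.01 (SE 0.38, adjusted p = 0.0291). This call is fragile. The adjusted p was 0.101 with DESeq2, 0.0559 without 24 h replicate 1, 0.131 without 24 h replicate 2 (where the log2 fold change was 0.72), 0.0814 without 48 h replicate 1 and 0.0682 without 48 h replicate 3. Its relatives Cdx1 and Cdx2 stayed undetected, with at most 4 counts and 1 count in a library.

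Of the 7 endoderm genes, 3 were undetected, 1 was low and untested, and 3 were tested, of which 2 fell and none rose. Their summed level was 14.0 ± 0.209 CPM and then 9.64 ± 0.438 CPM (SD, n = 3 each), most of it that of Hhex at both times. Hhex, a homeobox factor of anterior endoderm and later of liver and thyroid, had 202, 215 and 237 counts at 24 h and 143, 130 and 158 at 48 h. Every 48 h library lay below every 24 h library. Hhex (ENSMUSG00000024986, chr19:37434810-37440731, plus strand) fell from 10.2 ± 0.245 CPM to 6.55 ± 0.593 CPM (SD, n = 3 each), a fitted log2 change of -0.64 (SE 0.09, adjusted p = 1.71e-05).

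The FOXA factors, which open chromatin at endoderm and liver genes, differed in level. Foxa2, needed for node, notochord and definitive endoderm, was undetected, with 1 count in each 24 h library and 3, 2 and 2 at 48 h. Foxa1 had 34, 30 and 32 counts at 24 h and 35, 33 and 34 at 48 h, with a log2 fold change of 0.05 whose bounds at 2 standard errors were -0.38 and 0.47 (adjusted p = 0.866). Foxa3 had 37, 31 and 48 counts at 24 h and 29, 24 and 17 at 48 h. Foxa3 (ENSMUSG00000040891, chr7:19013284-19023538, minus strand) fell from 1.80 ± 0.264 CPM to 1.07 ± 0.285 CPM (SD, n = 3 each), a fitted log2 change of -0.76 (SE 0.25, adjusted p = 0.0151). The adjusted p of Foxa3 was 0.0551 with DESeq2, 0.0672 without 24 h replicate 3 and 0.0715 without 48 h replicate 3. The count of Foxa1 over that of Foxa3 was 0.919, 0.968 and 0.667 in the 24 h libraries and 1.21, 1.38 and 2.0 in the 48 h libraries, with no overlap. This ratio, and that of the AP-2 genes below, was chosen after its values were seen and was not tested.

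The 250 bases before the start of the detected Foxa3 and before the outermost start of the undetected Foxa2 are shown as a second pair of relatives that differ in detection. They lie at chr7:19023540-19023789 and chr2:148046970-148047219, both on the minus strand (GRCm38.p6, RefSeq), outside annotated exons, with motif matches in capitals.
Foxa3: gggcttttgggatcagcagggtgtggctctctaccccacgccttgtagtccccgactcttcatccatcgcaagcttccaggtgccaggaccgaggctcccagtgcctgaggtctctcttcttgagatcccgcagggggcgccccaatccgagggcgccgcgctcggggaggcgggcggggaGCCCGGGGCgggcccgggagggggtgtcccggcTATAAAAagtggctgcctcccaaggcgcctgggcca
Foxa2: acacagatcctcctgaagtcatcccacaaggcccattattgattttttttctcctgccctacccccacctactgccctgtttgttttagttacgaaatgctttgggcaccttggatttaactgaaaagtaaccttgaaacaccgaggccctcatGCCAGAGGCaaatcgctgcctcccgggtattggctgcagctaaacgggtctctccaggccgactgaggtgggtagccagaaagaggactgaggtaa
Foxa3 holds an AP-2 motif that begins 69 bases before its start and a TATA motif that begins 36 bases before it. Foxa2 holds an AP-2 motif that begins 96 bases before its start and no TATA motif here. Before another start of Foxa2, not printed, a TATA motif begins 209 bases upstream.

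The other endoderm genes were at or near 0. Cer1, a secreted inhibitor of Nodal, BMP and WNT made by anterior endoderm, and Gata5, of endoderm and heart, were at 0 in every library. Sox17, the SRY-box factor that marks both definitive and primitive endoderm, had 8, 11 and 6 counts at 24 h and 3, 11 and 10 at 48 h, so the times overlapped.

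Of the 9 primitive endoderm genes, 4 were undetected, 1 was low and untested, and 4 were tested, of which 2 fell and none rose. The group summed to 12.5 ± 0.97 CPM at 24 h and 6.96 ± 0.537 CPM at 48 h (SD, n = 3 each). The largest part was that of Gata4 at 24 h and that of Dab2 at 48 h. Gata4, a zinc finger factor that with Gata6 drives the primitive endoderm, had 97, 131 and 148 counts at 24 h and 54, 45 and 49 at 48 h. Gata4 (ENSMUSG00000021944, chr14:63198922-63271692, minus strand) fell from 5.84 ± 0.856 CPM to 2.25 ± 0.217 CPM (SD, n = 3), or 2.6-fold, with a fitted log2 change of -1.38 (SE 0.15, adjusted p = 4.89e-07). Gata6 itself, usually the earlier of the pair, was undetected, with 0, 4 and 5 counts at 24 h and 5, 9 and 3 at 48 h. In the fit of every gene with a count its log2 fold change was 0.86 (adjusted p = 0.399).

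Hnf4a, a nuclear receptor of visceral endoderm and liver, had 47, 55 and 50 counts at 24 h and 25, 25 and 28 at 48 h. Hnf4a (ENSMUSG00000017950, chr2:163506808-163572910, plus strand) fell from 2.39 ± 0.285 CPM to 1.19 ± 0.0673 CPM (SD, n = 3 each), a fitted log2 change of -1.0 (SE 0.20, adjusted p = 0.000411). Sox7, a primitive endoderm factor, had 6, 10 and 12 counts at 24 h and 7, 1 and 3 at 48 h. It did not pass in the fit of every gene with a count (log2 fold change -1.35, adjusted p = 0.0618).

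Pdgfra and Dab2 did not pass the test. Pdgfra, the receptor used as a surface marker of primitive endoderm, had 17, 13 and 18 counts at 24 h and 11, 7 and 15 at 48 h (fitted log2 change -0.57, SE 0.36, adjusted p = 0.173). Dab2, an endocytic adaptor, had 58, 51 and 73 counts at 24 h and 57, 49 and 60 at 48 h (fitted log2 change -0.17, SE 0.16, adjusted p = 0.388). Both overlapped between the times. Afp and Ttr, secreted proteins of mature visceral endoderm, had at most 1 count and 0 counts, and Amn, part of the cubilin receptor complex, had at most 2.

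Of the 6 trophoblast genes, 2 were undetected and 4 were tested, of which 2 fell and none rose. The group summed to 30.9 ± 1.11 CPM and then 15.8 ± 1.84 CPM (SD, n = 3 each), and Tfap2a carried most of this sum at both times. The genes that fell were the AP-2 factors, which act in trophoblast and also in germ cells and surface ectoderm. Tfap2c had 132, 133 and 158 counts at 24 h and 37, 28 and 37 at 48 h, with a wide gap between the groups. Tfap2c (ENSMUSG00000028640, chr2:172549593-172558622, plus strand) fell from 6.60 ± 0.101 CPM to 1.55 ± 0.235 CPM (SD, n = 3), or 4.25-fold, with a fitted log2 change of -2.09 (SE 0.14, adjusted p = 1.49e-09).

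Tfap2a had 454, 459 and 572 counts at 24 h and 301, 320 and 254 at 48 h. Tfap2a (ENSMUSG00000021359, chr13:40715302-40738376, minus strand) fell from 23.1 ± 0.978 CPM to 13.3 ± 1.65 CPM (SD, n = 3), or 1.74-fold, with a fitted log2 change of -0.80 (SE 0.08, adjusted p = 2.46e-07). It shares 380 exon bases with the antisense gene Gm26688, which had at most 9 counts, and shorter stretches with 2 antisense genes that are not rows of the table. The count of Tfap2a over that of Tfap2c was 3.44, 3.45 and 3.62 in the 24 h libraries and 8.14, 11.4 and 6.86 in the 48 h libraries. The ratio was higher in every 48 h library, so the AP-2 messages left at 48 h were more largely those of Tfap2a.

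Per kilobase of exon, Tfap2a and Eomes led the set at both times, in a different order. At 24 h Tfap2a had 4.64, 4.57 and 4.94 CPM per kilobase and Eomes had 4.24, 3.68 and 3.68. At 48 h Tfap2a had 2.83, 2.98 and 2.34 and Eomes had 3.46, 3.0 and 3.04. The ranges of the genes did not overlap at either time, although at 48 h they all but met. Before division by length, the genes overlapped at 48 h. Tfap2a then had 13.9, 14.6 and 11.5 CPM and Eomes had 14.4, 12.5 and 12.6. The change of order thus rests on the merged exon lengths, 4903 bases for Tfap2a and 4155 for Eomes, which are upper bounds. Hhex followed at 24 h with a mean of 2.02, then Tfap2c with 1.79 and Gata4 with 1.5.

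Of the 6 trophoblast genes, Cdx2 and Elf5 were undetected. Cdx2, the homeobox factor that specifies trophoblast, had at most 1 count in a library, and Elf5, which maintains trophoblast stem cells, had at most 2. Gata3, a trophoblast zinc finger factor, had 16, 13 and 18 counts at 24 h and 14, 10 and 8 at 48 h (fitted log2 change -0.59, SE 0.35, adjusted p = 0.155). Gata2, of trophoblast giant cells and blood progenitors, had 7, 11 and 9 counts at 24 h and 12, 11 and 3 at 48 h (log2 fold change -0.09, adjusted p = 0.881). Both overlapped between the times. Across the GATA family, then, Gata4 was the member with a change that passed the test, and Gata1, Gata5 and Gata6 were at 10 counts or fewer in every library.

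**Figure D3:**
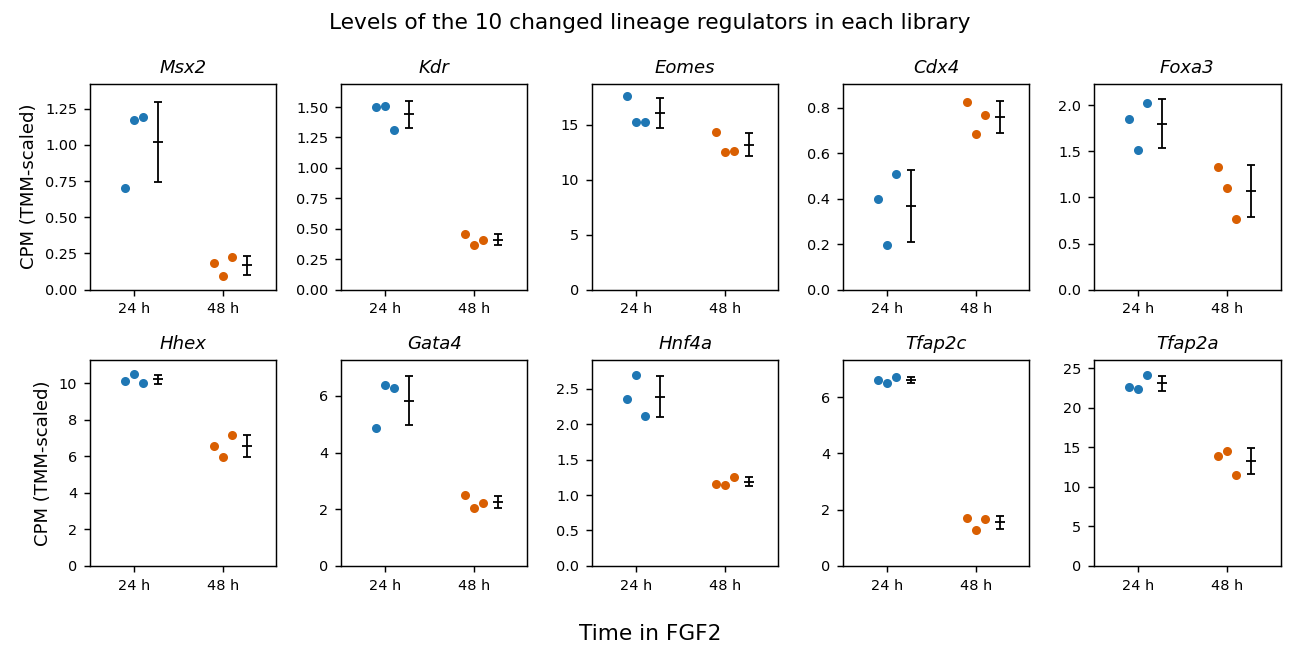
CPM (vertical axes, from 0) of the 10 changed regulators in each of the 3 libraries at 24 h and the 3 at 48 h (points), with mean and SD beside them; each panel has its own scale. Tfap2c drops from 6.60 to 1.55 CPM on average, Eomes moves from 16.1 to 13.2, and Cdx4 alone goes up.

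Lists of signals and effectors of the same lineages, chosen with earlier results of these data in view, give the setting. Of 15 streak signals and partners, 10 were tested, and 5 rose and 5 fell (median log2 fold change -0.08). Sp8, a zinc finger target of WNT signalling, rose most, by 2.24 (adjusted p = 2.19e-08), and Lefty2, a Nodal antagonist and target, fell most, from 33.9 ± 5.51 CPM to 2.54 ± 0.277 CPM (SD, n = 3 each; fitted log2 change -3.74, adjusted p = 3.9e-13). The counts of Lefty2 were fractional, so they include reads divided with similar genes. Fgf4, an FGF ligand that embryonic stem cells make themselves, rose by 0.30 on the log2 scale.

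Of 14 primitive endoderm effectors, all were tested, 4 rose, 9 fell and 1 did not pass (median -0.29). Many of these genes encode basement membrane proteins that embryonic stem cells make too. Nid1, encoding nidogen, fell most, from 297 ± 5.83 CPM to 68.6 ± 2 CPM (SD, n = 3 each; fitted log2 change -2.11), while Lamc1, a laminin chain, fell by 0.32. The receptor gene Fgfr2, which is in the primitive endoderm and the trophoblast list, rose most, from 4.08 ± 0.0682 CPM to 33.3 ± 1.22 CPM (fitted log2 change 3.03, adjusted p = 3.68e-15). The counts of Nid1 and Fgfr2 were fractional in part.

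Of 16 trophoblast effectors, 11 were tested, 1 rose, 8 fell and 2 did not pass (median -0.46). Bmp4, a ligand that maintains trophoblast and induces mesoderm, fell most, from 19.7 ± 2.05 CPM to 2.75 ± 0.25 CPM (SD, n = 3 each; fitted log2 change -2.84, adjusted p = 1.13e-12). Esrrb, an orphan nuclear receptor of both trophoblast and naive stem cells, fell by 1.47. Of 10 endoderm effectors, 6 were tested, 3 rose, 1 fell and 2 did not pass (median 0.33). Otx2, a factor of anterior endoderm and also of the formative epiblast, rose most, by 1.74, and Trh fell by 1.20.

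Markers of other cells moved as well. Of 10 neural progenitor genes, 7 were tested, 5 rose, 1 fell and 1 did not pass, and Sox3 rose most, from 5.17 ± 0.52 CPM to 22.7 ± 1.1 CPM (SD, n = 3 each; fitted log2 change 2.14, adjusted p = 2.4e-12). Sox1 rose by 1.31, and Nes fell by 0.19 (adjusted p = 0.0157), a call lost without 48 h replicate 2 (adjusted p = 0.0949), without 48 h replicate 3 (0.0652) and with DESeq2 (0.0554). The summed level of the neural list was 58.1 to 61.2 CPM at 24 h and 119 to 126 CPM at 48 h. Of the fibroblast markers, 5 were tested, 2 rose, 2 fell and 1 did not pass. Dcn, encoding the matrix protein decorin, had 0 counts in each 24 h library and 23, 25 and 32 at 48 h, Pdgfrb fell by 1.80, and Twist1 rose by 0.73. Of 9 genes of the two-cell-like state found in the table, all tested, 5 rose, 1 fell and 3 did not pass, with Zscan4f at 94.5 ± 7.14 and 146 ± 3.05 CPM (SD, n = 3 each). Their summed level was 359 to 385 CPM at 24 h and 447 to 462 CPM at 48 h. All 9 genes had fractional counts, so their levels and calls include reads divided with similar genes. The part of such cells in the changes of the lineage regulators was not tested.

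Promoter sequences of RefSeq (GRCm38.p6) were available for 31 of the 42 genes, in 38 windows, since some genes have several starts. The genes without one were Mixl1, Hand1, Ttr, Foxf1, Sox17, Sox7, Gata4, Cdx1, Tfap2c, Meox1 and Gata6. In the 250 bases before the start, the observed over expected number of CpG dinucleotides had a median of 0.615 among the regulators, beside 0.373 among all 32851 windows. It reached at least 0.6 in 20 of the 38 windows, or 52.6%, where 34% of all windows did. The median was 0.627 for tested genes (18 windows), 0.704 for low untested genes (5 windows) and 0.47 for undetected genes (15 windows), with wide overlap. Elf5, Mesp1 and Afp were the undetected genes with the lowest ratio in a window, at 0.0814, 0.105 and 0.125, and Lhx1 the one with the highest, at 0.991. Windows of 1 gene share sequence context and are not independent. Many of the 38 windows also overlap annotated exons. Those of Gata3, Hand2, Gsc and Msx2, a window of Gata2 and the Elf5 window at 0.0814 are exonic in all 250 bases. The Mesp1 window is exonic in 198 bases. These ratios and the motif shares below thus include transcribed sequence.

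**Figure D4:**
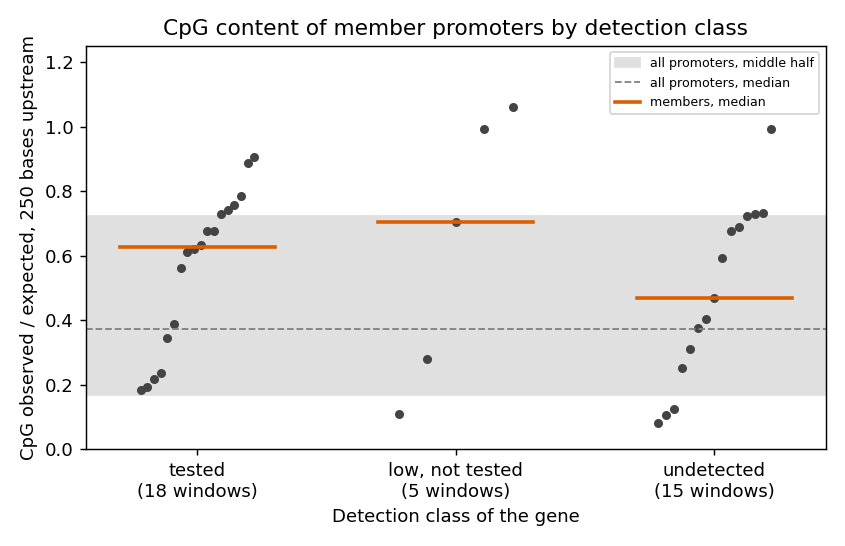
Observed over expected CpG in the 250 bases before each start (vertical axis) for 38 windows of 31 regulators, split by how the gene was detected; orange lines are medians, the grey band holds the middle 50% of all 32851 windows and the dashed line is their median of 0.373. The 3 classes overlap, with medians of 0.627, 0.704 and 0.47.

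The same windows were searched on both strands for 7 motifs, 6 of them known to be bound by families in the set. The GATA motif AGATAA was in 7.89% of the regulators' windows and 9.99% of all windows. The AP-2 motif GCCNNNGGC was in 23.7% and 13.7%, and the former share rests on 9 windows. The median share of G and C was 58.4% in the regulators' windows and 52.4% in all windows. Its bearing on the AP-2 share was not tested. The CDX motif TTTATG was in 10.5% and 10.8%, and the FOXA motif TGTTTAC in 5.26% and 3.17%. The T-box motif AGGTGTGA and the SOX motif AACAATG were in 0 of the 38 windows and in 1.12% and 3.29% of all windows. The TATA motif TATANAA was in 13.2% and 10.4%. By class, it was in 11.1% of the windows of tested genes, 20% of those of low untested genes and 13.3% of those of undetected genes. The pairs printed above, in which the detected gene has a TATA motif, therefore do not stand for their classes. No matches overlapped in the stretches printed above. A match is a run of letters and not a measured binding site, and no binding was measured here.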

How the data were processed

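The authors deposited a table of estimated counts per gene from RSEM, per the table's own name, not scaled for depth or length. The submitters' processing notes name cutadapt 1.9.1, STAR 2.5.2, RSEM 1.3.0 and build GRCm38, without roles. The annotation release, the strand setting and any filter are not given in the sources used here, so reads of antisense neighbours may be included.

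Each of the 6 columns carried the title of 1 sample. Counts were rounded. Symbols came from GENCODE M21 (GRCm38), which named 51633 of 51912 identifiers, and so did gene positions and merged exon lengths. None of the 42 members had a fractional count in any library, which is where reads divided between genes would show. Genes passing filterByExpr (minimum count 10) were compared, 48 h over 24 h, by the quasi-likelihood test of edgeR 4.0.16 under R 4.3.3 (functions glmQLFit, glmQLFTest), with TMM scaling and no term but group. Benjamini-Hochberg adjustment ran over all 14889 genes tested, and 0.05 was the threshold. The standard error is the size of the log2 fold change over the square root of F. CPM denotes each count divided by its TMM-scaled library total, on the usual CPM scale. The test was checked on simulated counts.

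The members, lineages and lists were chosen with earlier results of these data known. Every member could be named; of the other lists, the genes with the largest rise and fall and the one with the highest mean CPM over all libraries. The TATA motif was added after the sequences were read. Alternatives were RLE, upper quartile and library size scaling, 2 other filters, unrounded counts, DESeq2 1.42.0, limma voom (limma 3.58.1), a replicate block, leaving out each library and other limits for detection.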

Additional observations from a re-analysis of the deposited data

How the results depend on the processing

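Of 234 values of the 16 tested regulators under the alternatives, 222 kept direction and call, 8 lost the call and 4 reversed. The lost calls are those of Cdx4 and Foxa3 given above. The reversals are Foxa1 (-0.01 with library size only, -0.03 without 24 h replicate 3; range without 1 library -0.03 to 0.14) and Gata2 (0.11 without 24 h replicate 2, 0.32 without 48 h replicate 3; range -0.4 to 0.32), neither of which passed in any setting. Between 7 and 13 regulators were called. With at least 10 counts in every library, 7 of 10 tested regulators were called, beside 8825 of all 13436 tested genes. With every gene that has a count, 13 of 39 regulators were called, beside 9792 of all 26148 genes. The count of undetected genes was 15 with a limit of 5 counts, 29 with a limit of 20, 20 with 0.5 CPM, and between 19 and 22 without 1 library. The count of all changed genes lay between 7986 (DESeq2) and 9792 (every gene with a count). With the replicate block 9235 genes changed, among them 10 of the 16 regulators. Libraries of 1 number deviated from their group means with correlations of -0.046, -0.043 and -0.0085, and were therefore not treated as pairs. For the 26 of 42 regulators that the filter removed, low or absent expression and limited depth cannot be told apart.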

Other observations

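Some signals and effectors of these lineages also stood at the limit of detection. They were chosen after their values were seen. Wnt3a, a WNT ligand of the posterior streak, had 9, 6 and 7 counts at 24 h and 0 in each 48 h library. Wnt8a, another WNT ligand of the posterior epiblast, had 1, 1 and 2 counts at 24 h and 10, 11 and 9 at 48 h. Gcm1, a factor of labyrinth trophoblast, had 1, 1 and 3 counts at 24 h and 8, 8 and 10 at 48 h, while Cxcr4, a chemokine receptor used to sort definitive endoderm, had 14, 13 and 10 counts and then 5, 0 and 2. The edgeR filter removed all of these genes, and the choice of genes fixed how they differ. Of the other streak ligands that the filter removed, Wnt3 had 2, 1 and 1 counts at 24 h and 2, 7 and 2 at 48 h, and Fgf8 had 6, 4 and 1 and then 3, 2 and 2, so both overlapped between the times.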
